A study of Mus musculus with 12 samples.

Results

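Replication origin licensing factors load the MCM helicase onto DNA before S phase, and 10 of them were followed here through inhibition of mTOR and through expression of PGC-1alpha. They are Cdc6, Cdt1, Gmnn, Mcm2, Mcm3, Mcm4, Mcm5, Mcm6, Mcm7 and Mcm10. Every probe set whose only gene symbol in the platform annotation was one of these names was taken, which gave 27 of the 45037 probe sets tested. All 10 genes had at least 1 probe set, among 18193 genes measured. Where a single value stands for a gene, it is that of its brightest probe set, the one with the highest mean log2 intensity over all 12 arrays.

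In licensing, the origin recognition complex (ORC) binds DNA, and Cdc6, an ATPase, and Cdt1 join it to load the ring-shaped helicase made of the Mcm2, Mcm3, Mcm4, Mcm5, Mcm6 and Mcm7 proteins. Geminin, the product of Gmnn, binds Cdt1 and blocks further loading once S phase has begun, and Mcm10 helps to activate the loaded helicase when origins fire. Many of these genes are known targets of E2F transcription factors, which the retinoblastoma protein holds inactive in resting cells. The kinase mTOR drives cell growth and is restrained by TSC2, and rapamycin inhibits its first complex.

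The cells were mouse embryonic fibroblasts without TSC2 (TSC2-/- MEFs), and this deletion was carried by all 4 groups of 3 arrays. The groups were cells given 20 nM rapamycin for 14 h, cells given DMSO vehicle for 14 h, and confluent cells infected for 10 h with adenovirus for PGC-1alpha or for GFP and collected 14 h after that. PGC-1alpha is a coactivator best known as an inducer of mitochondrial genes. The title of the study places mitochondrial gene control by mTOR under YY1 and PGC-1alpha. Arrays without the TSC2 deletion were not analysed here, and the labels state confluence for the infected cells alone. The labels do not say whether the replicates came from separate cultures, although the series design text calls them biological triplicates, so p-values measure the spread between these arrays.

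The median intensity of an array was 77.5 to 81.0. Of 11 fibroblast markers, 9 read over 200 on every array. Lum, a dermal and stromal proteoglycan, read 34.6 to 40.7, and Pdgfrb, a receptor of mesenchymal cells, read as low as 193.7 on 1 array. Ppargc1a, the gene of PGC-1alpha, read 2344 ± 191 in PGC-1alpha arrays and 87.8 ± 11.8 in GFP arrays (SD, n = 3 each). The Tsc2 intensity averaged 198.1 ± 17.7 in rapamycin arrays and 261.5 ± 15.6 in vehicle arrays (SD, n = 3). It averaged 242.4 ± 13.1 in PGC-1alpha arrays and 224.6 ± 25.1 in GFP arrays (SD, n = 3). These lie above the array median, and without wild-type arrays or the position of the probes they do not check the deletion. GFP replicate 3 stood apart, as the SD of its log2 differences from GFP replicates 1 and 2 was 0.155 and 0.167, against 0.109 between those replicates.

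Promoter sequences from RefSeq (GRCm38.p6), 250 bases before to 50 after an annotated start, were matched by symbol for 8 of the 10 genes in 9 windows. Gmnn and Mcm4 had no entry. The windows were searched on both strands for the E2F letters TTTCCCGC, TTTCGCGC, TTTGCCGC and TTTGGCGC, with overlapping matches counted separately. These letters stood in 6 of the 8 genes (75.0%), against 704 of 27025 genes with a promoter entry (2.60%). Among genes with a window at least as GC-rich as the least GC-rich member window (48.7%), the share was 3.48%. The stretches below come from the 6 genes with a match. Each runs 5′ to 3′ on the strand of the gene, with the matched letters in capitals.

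Mcm6, chr1:128359736-128359835, minus strand: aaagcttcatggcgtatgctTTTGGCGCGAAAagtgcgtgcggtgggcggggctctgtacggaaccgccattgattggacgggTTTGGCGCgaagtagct
Mcm5, chr8:75109339-75109448, plus strand: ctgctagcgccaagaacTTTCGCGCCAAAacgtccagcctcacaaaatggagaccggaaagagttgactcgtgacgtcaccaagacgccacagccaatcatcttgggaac
Cdc6, chr11:98908002-98908031, plus strand: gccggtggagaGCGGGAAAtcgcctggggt
Cdt1, chr8:122568035-122568064, plus strand: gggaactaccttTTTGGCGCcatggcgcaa
Mcm3, chr1:20820266-20820295, minus strand: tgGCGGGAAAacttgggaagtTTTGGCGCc
Mcm7, chr5:138171849-138171878, minus strand: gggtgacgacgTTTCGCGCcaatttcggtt

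In Mcm6 and Mcm5 a match on one strand overlapped a match on the other, at 110 and 106 bases before the start in Mcm6 and at 153 and 149 bases before it in Mcm5. In Cdt1, Mcm3 and Mcm7 the matches shown began 16 to 38 bases after the annotated start. Mcm7 held a further match, not shown, 165 bases before the same start. Another annotated start of Mcm7 had a window without these letters. Counted by windows, 6 of 9 (66.7%) held them, against 2.26% of all promoter windows. Mcm2 and Mcm10 held none of these letters in their windows. The CCAAT box, the 5 letters CCAAT on either strand, stood in 6 of the 8 genes, against 41.1% of all genes with an entry. A match is a run of letters in a window and was not tested for binding or for a tie to the changes given below.

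Rapamycin was compared with vehicle to see what mTOR inhibition does to transcripts in cells without TSC2. Of the 10 licensing genes, 9 fell with rapamycin and 0 rose, by limma's test on the log2 scale (adjusted p under 0.05, Benjamini-Hochberg over all 45037 probe sets). Over all genes 18.0% fell and 11.3% rose. Scaling on the bacterial spike controls changes that balance: 41.2% of all probe sets fell and 3.22% rose, against 14.0% and 11.5% as deposited. At an unadjusted p under 0.05 the licensing genes again numbered 9 lower and 0 higher, against 22.6% and 15.6% of all genes. The median change was -0.61 on the log2 scale over the 10 genes and -0.01 over all 18193 genes. In these bulk cultures, fewer cells in a given phase of the cycle and less RNA per cell cannot be told apart.

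Cdc6, the loader ATPase, changed most. Its single probe set read intensities of 113, 124 and 122 with rapamycin, against 339.9, 336 and 277 with vehicle. All rapamycin arrays were below all vehicle arrays, and the lowest vehicle array was more than double the highest rapamycin array. Cdc6 was 2.65-fold lower with rapamycin (log2 change -1.40, SE 0.08, limma adjusted p = 1.31e-07, n = 3 arrays per group). Only 2 of the 18193 genes had a more negative change.

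Cdt1, the partner of Cdc6 in loading, and geminin, the inhibitor of Cdt1, fell side by side. Cdt1 read 1214.5, 1313.9 and 1266.5 with rapamycin, against 1872.8, 1908.5 and 1901.8 with vehicle. Gmnn read 458, 528 and 499 with rapamycin, against 784, 766 and 751 with vehicle. For both genes the groups did not overlap. The log2 change was -0.58 for Cdt1 (SE 0.05, limma adjusted p = 4.67e-06) and -0.63 for Gmnn (SE 0.06, limma adjusted p = 6.67e-06), so that the activator and its inhibitor were lower by 33.3% and 35.6%. A second Cdt1 probe set fell further, by 0.80 on the log2 scale. The third read 18.7 to 19.8 on all 6 arrays and did not pass (log2 change 0.01, limma adjusted p = 0.928).

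Of the 6 subunits of the helicase ring, 5 fell with rapamycin. Mcm5 read 772, 854 and 843 with rapamycin, against 1401, 1403 and 1339.9 with vehicle (log2 change -0.75, SE 0.06, limma adjusted p = 1.3e-06). Mcm6 read 1007, 1131 and 1067 with rapamycin, against 1662.5, 1670.5 and 1681 with vehicle (log2 change -0.65, SE 0.06, limma adjusted p = 3.45e-06). Mcm2 read 1241, 1367 and 1467 with rapamycin, against 2101, 1991 and 2044 with vehicle (log2 change -0.59, SE 0.06, limma adjusted p = 1.8e-05). In each of these 3 genes the rapamycin arrays lay well below the vehicle arrays, and the vehicle arrays were close to one another.

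Mcm3 and Mcm4 fell less by their brightest probe sets. Mcm3 read 792, 676 and 683 with rapamycin, against 1084, 1021 and 994 with vehicle (log2 change -0.53, SE 0.07). Mcm4 read 815, 919 and 850.2 with rapamycin, against 1188, 1188 and 1130.2 with vehicle (log2 change -0.44, SE 0.06, limma adjusted p = 9.4e-05). Neither gene's groups overlapped. Mcm10, which acts on the loaded helicase, read 354, 353 and 351 with rapamycin, against 546, 552 and 543 with vehicle. Within each group its arrays differed little, and its log2 change was -0.63 (SE 0.05, limma adjusted p = 1.62e-06).

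Mcm7 was the exception among the 10. It read 4439, 4764 and 4663 with rapamycin, against 4937, 5044 and 4977 with vehicle. The rapamycin arrays were again all lower, as were those of the other 9 genes and of 24.6% of all genes (17.5% had every rapamycin array higher), but the difference was 7.33% and did not pass (log2 change -0.11, SE 0.05, limma adjusted p = 0.166). Its 95% interval, -0.23 to 0.01, did not reach the change of any other licensing gene by its brightest probe set. Of the 4 Mcm7 probe sets only 1 fell, by 0.21 on the log2 scale (SE 0.06, limma adjusted p = 0.0172), and the others were at -0.06 to -0.11. The interval of the one that fell, -0.34 to -0.08, held the change of another Mcm4 probe set, -0.24. How far Mcm7 stood from Mcm4 thus depended on the probe set. With the arrays scaled on the bacterial spike controls, which shifted every change by -0.19, Mcm7 passed at -0.30 (limma adjusted p = 0.00667). With a variance trend it passed at -0.11 (limma adjusted p = 0.0434).

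**Figure D1:**
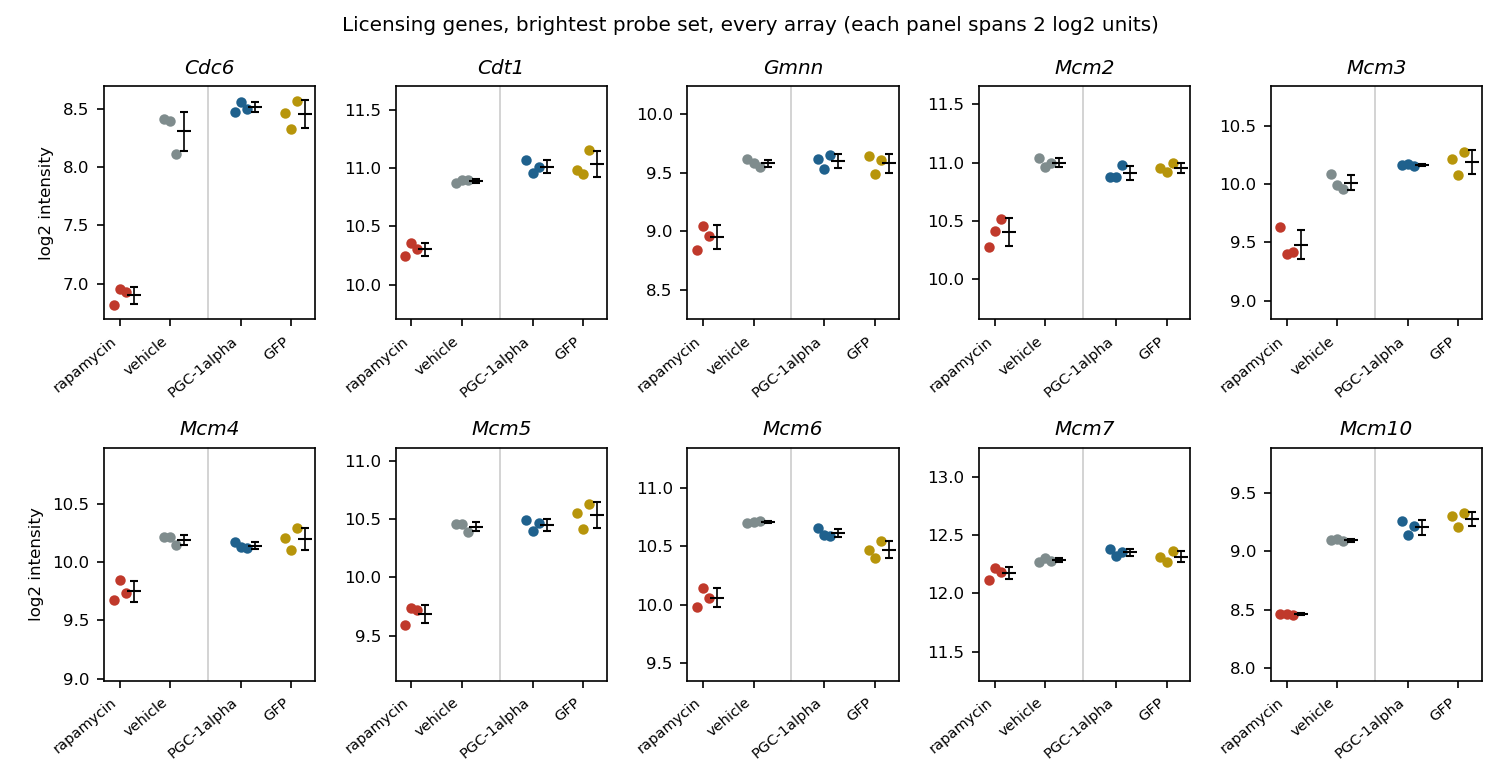
Log2 intensity of the brightest probe set of each licensing gene on every array (points), with the mean and SD of each group beside them (black); each panel spans 2 log2 units, and the grey line parts the experiments, which the authors normalized separately. All rapamycin arrays lie below all vehicle arrays in every panel, by little for Mcm7, whereas the PGC-1alpha and GFP arrays overlap in every panel but that of Mcm6.

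The balance between ring subunits was then set out, chosen after the values above were seen. For each array, the mean log2 value of the other 5 subunits was subtracted from that of Mcm7. The difference was 2.287, 2.309 and 2.298 with rapamycin, against 1.772, 1.834 and 1.841 with vehicle. Relative to the other subunits Mcm7 stood 0.48 higher with rapamycin on the log2 scale, with no overlap between groups (two-sided exact permutation p = 0.1, the smallest that 3 arrays against 3 can give). By the same measure Mcm5 was at -0.28 (exact permutation p = 0.1). The groups did not overlap in 8 of the 12 ratios, 6 in each experiment, each with p = 0.1 by the exact permutation test. With PGC-1alpha these were Mcm6 (0.18), Mcm7 (0.05), Mcm4 (-0.06) and Mcm5 (-0.09), so Mcm7 was not alone in this. None could pass an adjustment at these group sizes. The 6 ratios of an experiment are also tied, because each subunit enters the mean set against the others. A relative rise of Mcm7 thus lowers the other 5 ratios, and the non-overlaps are not separate results. The values of all the ratios depend on each probe set's response, so they show unequal change and no amounts of protein.

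**Figure D2:**
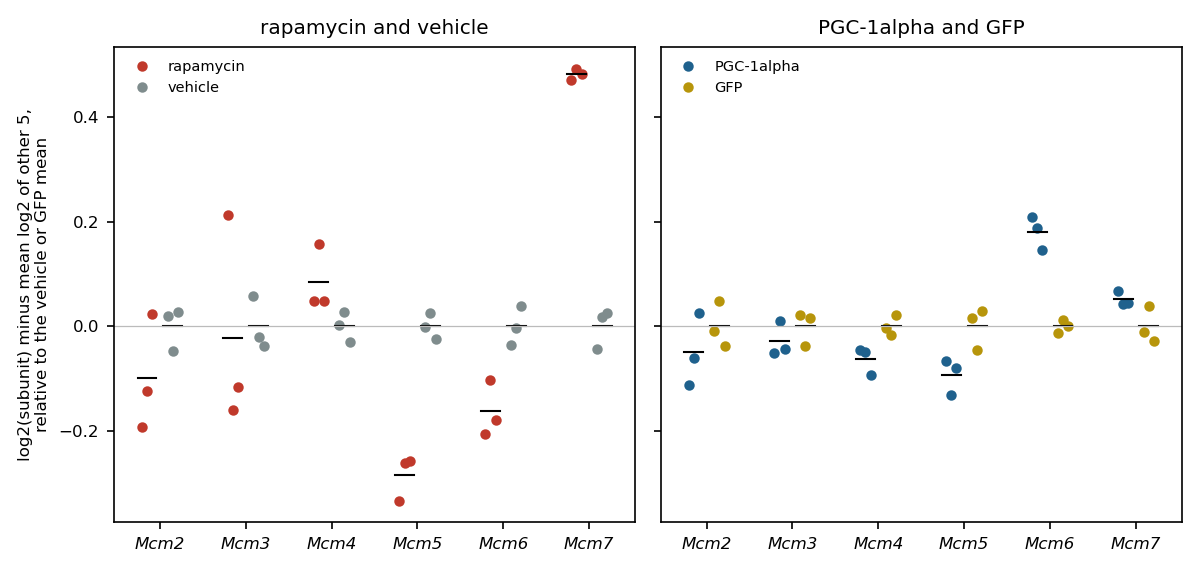
Log2 value of each ring subunit minus the mean of the other 5, on every array (points; short bars are group means), set to 0 at the vehicle mean on the left and at the GFP mean on the right. Mcm7 stands at 0.48 with rapamycin, apart from the other subunits, and Mcm6 stands at 0.18 with PGC-1alpha.

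Probe sets of one gene did not all move alike. Of the 27 probe sets, 20 fell with rapamycin and 0 rose, where 14.0% of all probe sets fell, and at an unadjusted p under 0.05 the numbers were again 20 and 0, against 18.3% and 16.2% of all probe sets. Every rapamycin array lay below every vehicle array in 20 probe sets, against 19.9% of all. These were 18 of those that fell and 2 of Mcm7 that did not pass. The 7 that did not pass were 3 of Mcm7, 1 of Cdt1, 1 of Mcm3, 1 of Mcm5 and 1 of Mcm6. The Cdt1, Mcm5 and Mcm6 ones among them were dim, with intensities of 14.2 to 53.6 on these 6 arrays, and that of Mcm3 read 84.6 to 99.1. A Mcm10 probe set that fell, at -0.28, was also dim, at 29.7 to 41.8. Without detection calls, such dim signals may be background.

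Probe sets whose name ends in x_at contain probes that also match other sequences. In Mcm3, Mcm4, Mcm5 and Mcm6 such a probe set with a mean log2 value over 8 changed less than the other bright ones of the same gene. Mcm5 was at -0.75 by its x_at probe set and at -0.98 by the other, which read 417, 515 and 501 with rapamycin, against 947, 940.0 and 934 with vehicle. Mcm3 was at -0.53 by x_at and at -0.81 to -0.86 by the other 3. Mcm4 was at -0.24 and -0.44, and Mcm6 at -0.48 and -0.65. The x_at probe set of Mcm7, at -0.10, lay among the others of its gene, at -0.06 to -0.21. Of those others, the one at -0.21 has a name ending in a_at. The rest, at -0.06 and -0.11, end in s_at. The one at -0.11 is the brightest, on which the Mcm7 values and the subunit ratios above rest. Whether its probes match other sequences was not tested. For Mcm3 and Mcm5 the x_at probe set was the brightest, so the values above that stand for these genes are the smaller ones.

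**Figure D3:**
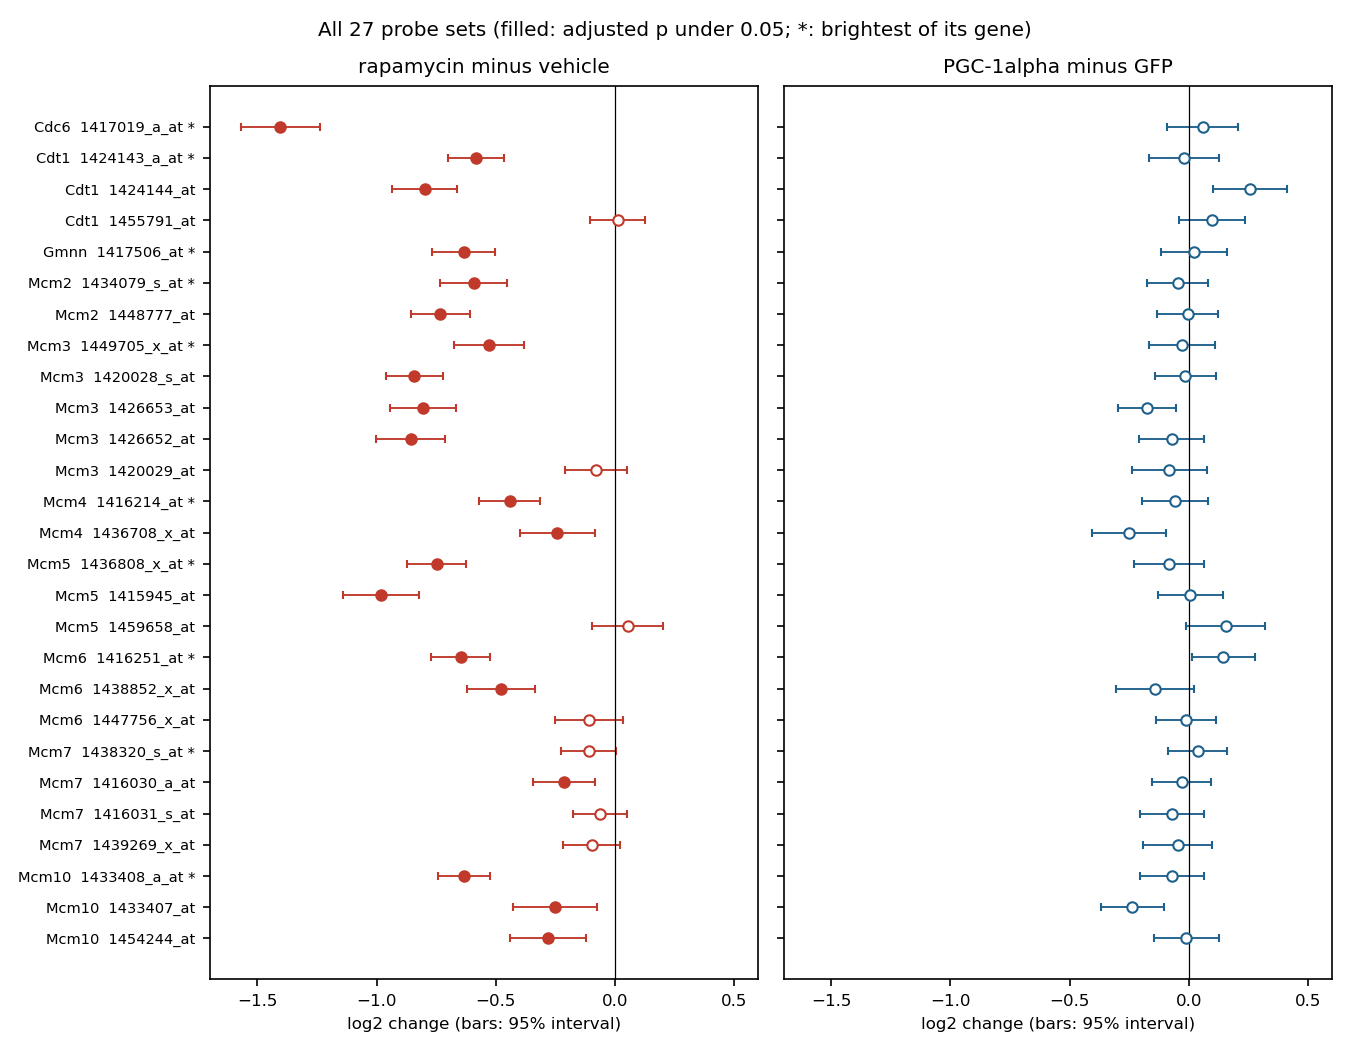
Log2 change of all 27 probe sets of the licensing genes, rapamycin minus vehicle (left) and PGC-1alpha minus GFP (right), with 95% intervals from limma; filled points passed at an adjusted p under 0.05 and an asterisk marks the brightest probe set of a gene. On the left 20 points are filled, all below 0, and on the right none is.

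Other measures also differed between these groups. The spike controls were higher with rapamycin, at a mean log2 of 10.72, than with vehicle, at 10.53, and the falls of the 9 genes were larger when the arrays were scaled on them, from -0.63 for Mcm4 to -1.59 for Cdc6. The Gapdh controls, which gauge RNA quality, had a 3'/5' ratio of 0.820 ± 0.011 with rapamycin and 0.849 ± 0.011 with vehicle (SD, n = 3 each). Of 5 macrophage markers 0, and of 5 epithelial markers 2, read over 200 on all 12 arrays, a count that takes in the PGC-1alpha and GFP arrays. In PGC-1alpha and GFP arrays Csf1r averaged 203.9 and 194.1, and Cd14 averaged 177.0 and 180.8. Among the macrophage markers Csf1r averaged 247.1 with rapamycin and 231.5 with vehicle, and Cd14 averaged 286.5 with rapamycin and 250.4 with vehicle. Adgre1 averaged 62.9 with rapamycin and 62.1 with vehicle, and Cd68 averaged 69.1 with rapamycin and 56.7 with vehicle. The summed intensity of the macrophage markers was 680.7 to 700.8 with rapamycin and 612.9 to 637.9 with vehicle, with Ptprc, the pan-leukocyte antigen CD45, at 20.3 to 27.3 on all 12 arrays. That of the epithelial markers was 1490 to 1546 with rapamycin and 1233 to 1301 with vehicle, with Cdh1, which encodes E-cadherin, at 29.0 to 39.6 and Epcam at 632.7 to 831.1 on all 12 arrays. Among these Krt18 averaged 570.5 with rapamycin and 388.0 with vehicle, and Krt8 averaged 119.4 with rapamycin and 121.2 with vehicle. The fibroblast markers summed to 62760 to 67110 with rapamycin and 59400 to 61350 with vehicle. The part of the RNA ratio and of these markers in the result was not tested.

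PGC-1alpha was compared with GFP to see the effect of the coactivator alone. Of the 10 licensing genes 0 rose and 0 fell by limma, where 1.41% of all genes rose and 0.594% fell. At an unadjusted p under 0.05, 1 was higher (Mcm6) and 0 were lower, against 8.88% and 3.31% of all genes. The median change of the 10 genes was -0.03 on the log2 scale, against 0.01 over all genes. By brightest probe sets, the 95% intervals of the 10 changes lay between -0.23 and 0.28. Other bright probe sets of the same genes went beyond this. The interval was 0.10 to 0.41 for a Cdt1 probe set and -0.41 to -0.10 for a Mcm4 probe set. The intervals therefore bound no gene's change at that width and do not show that the groups were alike.

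Cdc6 read 355, 377 and 362 in PGC-1alpha arrays, against 352.5, 321 and 380.0 in GFP arrays (log2 change 0.06, SE 0.07, limma adjusted p = 0.859). Gmnn read 788, 742 and 803 in PGC-1alpha arrays, against 800.5, 717 and 783 in GFP arrays (log2 change 0.02, SE 0.06, limma adjusted p = 0.954). In both genes the groups overlapped. Mcm7 read 5342, 5118 and 5225.5 in PGC-1alpha arrays, against 5085, 4930.4 and 5279.8 in GFP arrays (log2 change 0.04, SE 0.06, limma adjusted p = 0.9).

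Mcm6 was the single gene whose groups did not overlap in this comparison, where every PGC-1alpha array lay above every GFP array in 10.1% of all genes and below in 5.72%. It read 1613, 1548.5 and 1542 in PGC-1alpha arrays, against 1412.5, 1350.3 and 1494 in GFP arrays (log2 change 0.15, SE 0.06, limma adjusted p = 0.351). Its other bright probe set was at -0.14 (limma adjusted p = 0.52), so the Mcm6 probe sets differed in sign. A Cdt1 probe set read 1593, 1578 and 1709 in PGC-1alpha arrays, against 1316, 1270.4 and 1502 in GFP arrays (log2 change 0.26, SE 0.07, limma adjusted p = 0.105). The brightest Cdt1 probe set was at -0.02.

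Of the 27 probe sets none passed in either direction, where 0.997% of all rose and 0.955% fell. At an unadjusted p under 0.05, 2 were higher and 3 lower, against 6.31% and 5.29% of all probe sets. The 3 lower ones were probe sets of Mcm3 (log2 change -0.18), Mcm4 (-0.25) and Mcm10 (-0.24), each of which had every PGC-1alpha array below every GFP array, as did 7.91% of all probe sets. The reverse held for the Mcm6 and Cdt1 probe sets above and for 7.76% of all. The limma adjusted p-values of the 3 lower ones were 0.174, 0.114 and 0.0749. GFP replicate 3 had the highest GFP value in Cdc6, Cdt1, Mcm2, Mcm3, Mcm4, Mcm5, Mcm6, Mcm7 and Mcm10. Without that array 4.35% of all probe sets rose and 1.95% fell, and with any other array left out 0.251% to 0.320% rose and 0.369% to 0.648% fell. In each of these fits 0 of the 10 genes passed.

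The effects of rapamycin and of PGC-1alpha were set against each other in 1 fit over all 12 arrays, in which each effect was taken inside its own experiment and no array was shared. The experiments also differed in infection, timing and RMA batch, and confluence was stated for the infected cells alone. The agent and its experiment therefore cannot be told apart in this difference. The effects differed in 9 of the 10 genes, all with the rapamycin effect lower, where 16.5% of all genes differed in that direction and 24.1% in either. Of the 27 probe sets 16 differed, all with the rapamycin effect lower, where 12.0% of all probe sets did so and 20.7% differed in either direction. The difference was -1.46 on the log2 scale for Cdc6 (SE 0.11, limma adjusted p = 3.39e-08), -0.79 for Mcm6 (SE 0.08, limma adjusted p = 1.28e-06) and -0.67 for Mcm5 (SE 0.09, limma adjusted p = 1.99e-05). For Mcm4 it was -0.38 (SE 0.09, limma adjusted p = 0.00289), a call lost when all probe sets of a gene were averaged (-0.19, limma adjusted p = 0.12). Mcm7 did not pass, at -0.15 (SE 0.08, limma adjusted p = 0.203), although with spike scaling it did, at -0.50 (limma adjusted p = 0.0143). That scaling shifted every rapamycin change by -0.19 and every PGC-1alpha change by 0.17, so part of the -0.50 is shared by all genes.

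Genes around licensing were counted in 5 lists, each by brightest probe sets. Over all genes 18.0% fell and 11.3% rose with rapamycin, and at an unadjusted p under 0.05 22.6% were lower and 15.6% higher. Of 12 ORC genes and loading partners 9 fell with rapamycin and 0 rose, with a median change of -0.25 on the log2 scale. At an unadjusted p under 0.05 the numbers were the same. Orc2 (-0.90), Orc6 (-0.57) and Orc4 (-0.42) encode ORC subunits, and Mcm8 (-0.65), a relative of the ring subunits that acts in DNA repair, was dim at 53.5 to 92.1. Orc2 read 319, 340.1 and 323 with rapamycin, against 628, 621 and 582.5 with vehicle, without overlap. Orc1, Orc3 and Orc5 did not pass by their brightest probe sets, at 0.02, -0.12 and -0.02, although the second Orc1 probe set fell by 0.81.

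Factors of the active helicase and of origin firing, a list that also holds replication fork genes such as Timeless, had the lowest median of the lists, at -0.70. Of 15, 13 fell with rapamycin and 0 rose, and at an unadjusted p under 0.05 14 were lower and 0 higher. Cdc7, the kinase that triggers firing, read 99.2, 106.4 and 97.8 with rapamycin, against 206, 208 and 199.5 with vehicle (log2 change -1.02, SE 0.06, limma adjusted p = 1.27e-07). Dbf4, the activating subunit of Cdc7, fell by 0.88 on its brighter probe set, and the other was at -0.02. Gins1, part of the GINS complex of the active helicase, fell by 0.87 and Mtbp, a firing factor, by 0.86. Gins3 and Gins4 did not pass, at -0.18 and -0.02.

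Of 11 genes that act in the destruction of Cdt1 and Cdc6 or its control, 7 fell with rapamycin and 0 rose (8 and 0 at an unadjusted p under 0.05), with a median of -0.24. Fbxo5, an inhibitor of the anaphase-promoting complex, was at -0.84. Dtl, which recruits Cdt1 to its ubiquitin ligase on DNA-bound Pcna, was at -0.69, Pcna itself at -0.67, and Skp2, an F-box protein for Cdt1, at -0.64. The ligase's general parts Cul4a, Cul4b and Ddb1 were at 0.09, -0.01 and 0.01 and did not pass. Only 3 of the 6 Dtl probe sets fell, and 5 of the 6 of Skp2.

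Of 15 E2F and retinoblastoma family genes and their partners 9 fell and 1 rose with rapamycin, with a median of -0.33, and at an unadjusted p under 0.05 the numbers were 10 and 2. Lin54 (-0.78; 1 of its 2 probe sets fell), a DNA-binding subunit of the DREAM complex, E2f8 (-0.72), a repressor E2F, and Tfdp1 (-0.52), the dimer partner of E2F proteins, were the largest falls. Rb1, the retinoblastoma gene, read 109.5, 101 and 114.5 with rapamycin, against 65.4, 78.4 and 77.3 with vehicle (log2 change 0.56, SE 0.075, limma adjusted p = 9.34e-05). Its groups did not overlap, but its second probe set was at -0.01. E2f5, the other gene higher at an unadjusted p under 0.05, was at 0.30 with overlapping groups. Of its 3 probe sets 2 fell, down to -0.47. Tfdp2 did not pass by its brightest probe set, at 0.11, although 3 of its 4 probe sets rose, by up to 0.31. All 7 S phase kinase genes, cyclins and their regulators fell, with a median of -0.53, led by Ccne2 (-0.96), Ccna2 (-0.84), Cdk1 (-0.56) and Cdc25a (-0.53).

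With PGC-1alpha 1 gene of these 5 lists passed by its brightest probe set, where 1.41% of all genes rose and 0.594% fell. Usp37, a deubiquitinase, fell by 0.41 on the log2 scale (limma adjusted p = 0.0217), and with rapamycin by 0.225 (limma adjusted p = 0.0101). Its second probe set did not pass with PGC-1alpha, at -0.01. Over all probe sets 0.997% rose and 0.955% fell, and among those of the lists that were not the brightest of their gene, 3 passed. Of these, 1 of 6 for Dtl fell by 0.42 and 1 of 2 for Timeless, which protects replication forks, fell by 0.45. The third, 1 of 2 for Ccne1 (cyclin E1), rose by 0.49. The list medians in that comparison lay between -0.0045 for the destruction genes and 0.02 for ORC and for the S phase kinases. By brightest probe sets 0 passed in limma among ORC genes, firing factors, E2F genes and S phase kinases. At an unadjusted p under 0.05, 0 ORC genes were lower and 0 higher. The numbers lower and higher were 1 and 1 among firing factors, 2 and 1 among destruction genes, 1 and 0 among E2F genes and 1 and 2 among S phase kinases. Over all genes the shares were 3.31% lower and 8.88% higher. The genes of smallest p there were Mcm3ap (0.14) and Mcmbp (0.12), Gins4 (0.15) and Gins3 (-0.16), E2f8 (-0.15) and E2f2 (0.13), and Ccna2 (0.20) and Ccne1 (0.18).

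**Figure D4:**
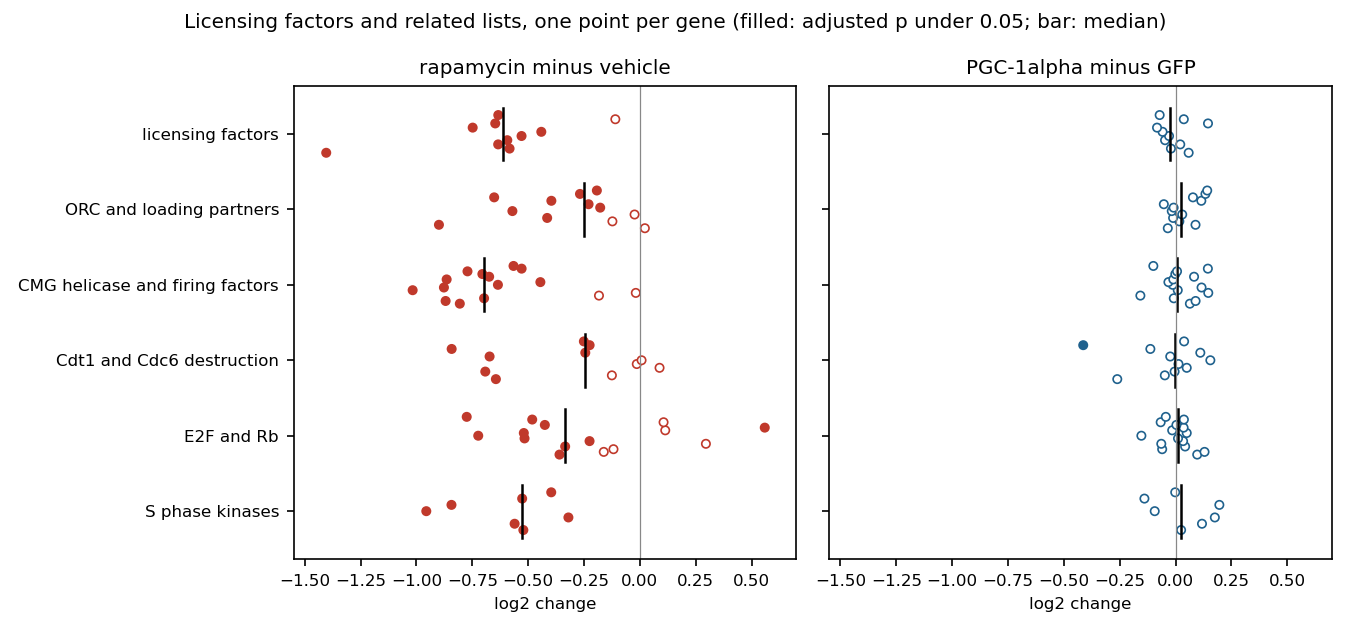
Log2 change of the licensing genes and of the genes of 5 related lists, 1 point per gene, rapamycin minus vehicle (left) and PGC-1alpha minus GFP (right), on the same axis; filled points passed at an adjusted p under 0.05 and black bars are medians. With rapamycin the medians run from -0.24 to -0.70, and with PGC-1alpha they lie between -0.03 and 0.02 with Usp37 the only filled point.

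Among 18183 other genes, the 6 whose values over the 12 arrays, centred in each experiment, lay nearest to the mean of the 10 licensing genes were Ruvbl2, Naa50, Pcna, Cinp, Xpo1 and Mtrex. The root mean square difference was 0.023 for Ruvbl2, an ATPase of chromatin remodelling complexes, and 0.032 for Mtrex, an RNA helicase of the nuclear exosome. Their changes with rapamycin ran from -0.60 for Xpo1, a nuclear export receptor, to -0.67 for Pcna, the sliding clamp of DNA polymerases. Within the licensing genes Cdt1 lay nearest to the mean, at 0.036, and Cdc6 and Mcm7 farthest, at 0.281 and 0.187, against a median of 0.235 over all genes.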

How the data were processed

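Expression was measured on 12 Affymetrix MOE430 v2 arrays. The deposited values are intensity values per probe set, made by the authors with RMA at default settings in BioConductor 1.2, per the labels and the design text of the series, which has 2 batches: rapamycin with vehicle, and PGC-1alpha with GFP. No source used here states their scale, and they were read as linear from their range and turned into log2 without a pseudocount. RMA makes the arrays of a batch alike in distribution, so changes are relative to other probe sets, and no level was set against one of the other batch. The number of arrays limits the precision.

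Control probe sets (64) were not tested, and no filter on low values was set, so all 27 member probe sets were tested. Of 45037 probe sets 34945 had 1 gene symbol, 932 several and 9160 none listed; Entrez IDs gave current RefSeq symbols for 34741. The 6 arrays of a comparison were fitted alone, and the effect difference over 12, with limma 3.58.1 in R 4.3.3, two-sided, adjusted by Benjamini-Hochberg over all probe sets at 0.05. The code was run on simulated independent normal noise with limma's own variances and 200 changed probe sets. It recovered 100% of these, with 17 false calls for rapamycin and 19 for PGC-1alpha. Such noise cannot test whether the real arrays meet these assumptions. Python 3.11.15 with pandas 2.3.3, scipy 1.17.1 and matplotlib 3.10.9 was used for the rest.

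The members, lists, motifs and tests were chosen with earlier results of these data known. All members were named. From each list up to 4 genes that passed were named, taken by size of change and including the top one of the other direction. Where none passed, the 2 of smallest p were named. The 6 genes nearest to the mean profile were named too. Other genes named in a list (Orc1, Orc3, Orc5, Gins3, Gins4, Cul4a, Cul4b, Ddb1, E2f5, Tfdp2) were chosen after their values were seen. Alternatives were spike scaling, quantile normalization over 12 arrays, median centring, a pseudocount of 16, leaving out probe sets with a mean intensity of 50 or less, averaging the probe sets of a gene, a variance trend, 1 fit of 12 arrays, the replicate number as a block, and leaving out each array.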

Additional observations from a re-analysis of the deposited data

How the results depend on the processing

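Under every alternative run, the 9 licensing genes that fell with rapamycin still fell and passed, with Cdc6 at -1.59 to -1.29 and Mcm4 at -0.63 to -0.34 on the log2 scale. Leaving out any 1 array gave 9 lowered genes and 0 raised. With PGC-1alpha 0 genes passed under any alternative, and 17 values changed sign without passing, 6 of them with 1 array left out. Spike scaling shifted every change by -0.19 with rapamycin and by 0.17 with PGC-1alpha, where 29 probe sets were lowered and 296 raised, against 430 and 449 as deposited. Beyond the calls of Mcm7 and Mcm4 given in the report (Mcm7 with spike scaling and with a variance trend, and the effect differences of both), no call on a licensing gene changed. Same-numbered arrays had correlated deviations of -0.13 to 0.23, so the numbers were not taken as pairs; with the replicate block 9 genes fell with rapamycin, 0 passed with PGC-1alpha and 9 effects differed. Signal near background limits what the dim probe sets can show.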
